A study of Mus musculus with 24 samples.

Results

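The question examined here is whether loss of nebulin changed gene expression differently in the quadriceps and in the soleus of the same kind of mouse. For each gene the change in quadriceps (conditional knockout, cKO, minus control) was compared with the change in soleus, and the difference between the 2 changes, quadriceps change minus soleus change, was tested in 1 model. All 24 arrays of the series entered this comparison, 6 in each of 4 groups, and 15999 of the 19938 genes with a single symbol on the array were bright enough to be tested. Genes with a called difference were then separated by what happened in each muscle: a change called in quadriceps only, in soleus only, in both muscles the same way but larger in 1 of them, or in opposite directions.

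The mice were males aged 40 to 42 days on a mixed background of C57BL/6J and 1219S6/SvEvTac, the second name spelled as the labels give it. Every mouse, control or cKO, was homozygous for a conditional (floxed) allele of the nebulin gene Neb. The cKO mice were in addition hemizygous for MCK-Cre, a Cre recombinase under the muscle creatine kinase promoter, which is active in muscle fibres and the heart, and the controls carried no Cre. The groups are called quadriceps control, quadriceps cKO, soleus control and soleus cKO below. As controls had no Cre, an effect of Cre itself cannot be told apart from that of nebulin loss. The submitters describe the quadriceps of the cKO as markedly smaller than in controls and the soleus as not significantly different in size. The labels number the samples of a group 1 to 6 without stating that each is a separate animal, so p-values measure the spread between these samples. Values are log2 intensities of the arrays, and a difference of 1 on this scale is a 2-fold difference.

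Nebulin is a very large protein of the sarcomere, bound along the actin filaments, whose length and force it supports together with other proteins. Loss of nebulin causes nemaline myopathy, a disease of muscle weakness with protein rods in the fibres. Quadriceps in the mouse is made mostly of fast, glycolytic fibres and serves bursts of movement. Soleus is a postural muscle with many slow fibres, which use slow isoforms of myosin and troponin and a slow calcium pump. Fibres can exchange such isoforms with load, innervation and disease. In whole muscle, fewer cells of a type and less RNA per cell cannot be told apart, so every value below is a level in muscle RNA as a whole.

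The targeted gene was lower in both muscles. Neb lay between 12.11 and 12.50 in quadriceps controls (median 12.28) and between 10.50 and 11.16 in quadriceps cKO (median 10.82). Soleus controls read 12.04 to 12.56 (median 12.46) and soleus cKO 10.94 to 11.48 (median 11.27). Neither muscle's groups overlapped. The fall was 1.45 in quadriceps and 1.14 in soleus (log2), a 2.73-fold and a 2.20-fold lower level, and the difference between muscles, -0.31 ± 0.16 (SE), missed the threshold (limma adjusted p = 0.215). All 24 arrays matched their genotype label by this gene.

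Some control arrays stood apart from their group. Soleus control 1 lay towards soleus cKO for many of the genes below: it held 8 of the 12 single arrays that fell far outside their group among 32 genes followed array by array. Its Neb value, 12.04, was the lowest of the soleus controls and still above every soleus cKO array. Quadriceps controls 1 and 6 were high for slow fibre genes. Leaving out 1 array at a time moved the count of genes with a called difference from 1966 to between 1576 (without quadriceps cKO 2) and 2856 (without quadriceps control 6). It was 2659 without soleus control 1 and 3038 without quadriceps controls 1 and 6. Array medians spanned 4.74 to 4.94, and across genes (which are not independent replicates) the lowest and highest r within a group were 0.963 and 0.993. Precision is set by the 6 arrays per group, with a standard error of 0.14 for the difference of a median gene.

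A difference between muscles was called for 1966 genes, 12.3% of those tested (limma, Benjamini-Hochberg adjusted p under 0.05). At an unadjusted p under 0.05 it was 4299 genes (26.9%), and 914 genes (5.71%) were called and differed by at least 1.5-fold. The quadriceps change was the more positive for 1183 genes (7.39% of those tested) and the more negative for 783 (4.89%), so that 60.2% of the called genes were of the first kind. This split depended on the scaling of the arrays: it was 45.6% with each array centred on its median, 48.7% with centring on the 75th percentile, and quantile normalization gave 52.0%. The median difference over all genes was 0.00 as deposited and -0.04 when centred on array medians, so the numbers of genes on each side are not compared further. With quadriceps and soleus of 1 number taken as muscles of the same mouse, a random animal term called 2952 genes and a fixed one 2866, of which 1797 had the more positive quadriceps change.

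Most of the called genes changed in quadriceps and were not called in soleus. This class held 1107 genes (6.92% of those tested), 696 higher and 411 lower in cKO quadriceps. A further 388 genes (2.43%) were called in soleus only, 182 higher and 206 lower in cKO soleus. In 218 genes (1.36%) both muscles changed the same way and quadriceps changed more, 157 up and 61 down. In 61 genes (0.381%) both changed the same way and soleus changed more, 36 up and 25 down. Opposite directions were called for 117 genes (0.731%), 54 of them up in quadriceps and down in soleus and 63 the reverse. The other 75 (0.469%) had a called difference with neither muscle called by itself. In all, 396 of the called genes (2.48% of those tested) were called in both muscles as well, and 14033 genes (87.7%) had no called difference. Of the latter, 1895 were called in both muscles the same way, and a missed threshold does not show that the muscles responded alike.

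Class membership was less stable than the difference itself. Of 126 called genes named and refitted here, 79 kept their class in all 38 other settings and 47 did not. The class changed in 13 settings for Mef2a, in 10 for Fhl1, in 9 each for Ostn, Camk2a, Id1, P3h2 and Slc5a3, and in 8 each for Egln3, Fat3, Ifi203, Utrn and Gdf11. "Only" describes calls and not the absence of a change. For 1044 of the 1107 quadriceps-only genes (94.3%) the 95% interval of the soleus change lay within 1.5-fold either way, and 156 of the 1107 had an unadjusted p under 0.05 in soleus. In 13 of the 1107 the soleus groups did not overlap, against 12.8% of all genes. For 344 of the 388 soleus-only genes (88.7%) the interval of the quadriceps change lay within 1.5-fold. Genes with no called difference gave 85% for soleus and 81.1% for quadriceps. As the classes require the other muscle not to be called, high shares were in part set in advance. The quadriceps interval also lay within 1.5-fold for 26.8% of the quadriceps-only genes. By itself, quadriceps gave 3563 genes called higher (22.3%) and 2836 lower (17.7%) in cKO, and soleus 2104 higher (13.2%) and 1590 lower (9.94%).

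**Figure D1:**
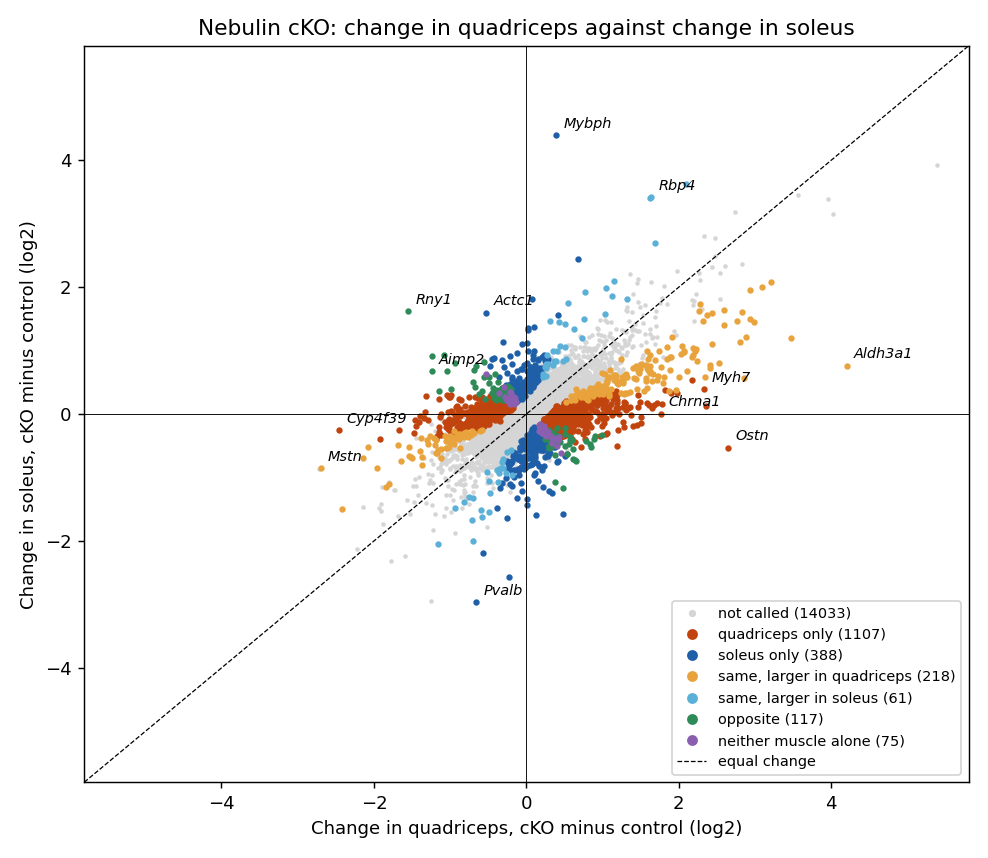
Change in quadriceps (horizontal axis, cKO minus control, log2) against change in soleus (vertical axis, same scale) for all 15999 genes tested, coloured by class; the dashed line marks equal change. The 1107 quadriceps-only genes lie along the horizontal axis, the 388 soleus-only genes along the vertical axis, and the 117 opposite genes at the upper left and lower right, with Mybph (4.40 in soleus, 0.39 in quadriceps) and Aldh3a1 (4.20 in quadriceps, 0.76 in soleus) farthest out in their classes.

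A majority of the genes for subunits of the muscle acetylcholine receptor rose more in quadriceps than in soleus. The receptor is a pentamer at the neuromuscular junction; its adult form carries an epsilon subunit (Chrne) and its fetal form, which returns in denervated fibres, a gamma subunit (Chrng). Chrna1, the alpha subunit that binds acetylcholine, lay between 7.43 and 7.87 in quadriceps controls (median 7.67) and between 9.25 and 9.59 in quadriceps cKO (median 9.41). Soleus controls read 7.87 to 8.50 (median 7.99) and soleus cKO 7.82 to 8.29 (median 8.05). The quadriceps groups were far apart and the soleus groups overlapped almost fully. The quadriceps change of 1.77 (3.41-fold higher) stood against 0.01 in soleus (95% interval -0.21 to 0.22), a difference of 1.76 ± 0.15 (adjusted p = 1.35e-08).

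Chrng rose by 1.87 in quadriceps and by 0.36 in soleus, a difference of 1.51 (adjusted p = 1.48e-07). Chrnd, the delta subunit, rose by 1.77 and 0.74, a difference of 1.03. Both were called in both muscles and changed more in quadriceps. The remaining subunits, chosen for description after their values were seen, did not follow. Chrnb1, the beta subunit, changed by 1.04 in quadriceps and 1.48 in soleus, with a difference that missed the threshold (-0.45, adjusted p = 0.0748). Chrne changed by 0.15 and 0.61, a difference of -0.46 that was barely called (adjusted p = 0.0496) and lost the call in 18 of 38 other settings, with adjusted p from 0.00399 to 0.0962; Chrnb1 was called in 9 of them, among them with the animal as a fixed block (adjusted p = 0.00673).

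The receptor genes are a textbook case of control by the myogenic factors, such as myogenin, which bind the E-box, a short palindromic DNA motif. The 250 bases upstream of the annotated start of 4 subunit genes are shown because these subunits share a protein complex and differed in how the muscles changed. They are from RefSeq (GRCm38.p6), 5′ to 3′ on the gene's strand. Capitals mark CAGCTG, 1 form of the E-box, which reads the same on both strands; no other motif was searched. The window of Chrnd, which also rose more in quadriceps, was not analysed here.
Chrna1 (chr2:73580339-73580588, minus strand): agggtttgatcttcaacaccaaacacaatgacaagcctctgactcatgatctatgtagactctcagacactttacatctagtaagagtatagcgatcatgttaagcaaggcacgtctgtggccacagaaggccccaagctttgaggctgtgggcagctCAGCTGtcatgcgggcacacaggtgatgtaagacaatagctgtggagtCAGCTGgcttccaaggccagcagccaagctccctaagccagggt
Chrng (chr1:87205561-87205810, plus strand): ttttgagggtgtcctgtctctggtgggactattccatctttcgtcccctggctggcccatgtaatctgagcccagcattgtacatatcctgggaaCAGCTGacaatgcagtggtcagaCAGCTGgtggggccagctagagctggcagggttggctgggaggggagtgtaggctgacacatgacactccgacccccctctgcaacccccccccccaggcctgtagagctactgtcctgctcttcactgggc
Chrnb1 (chr11:69795938-69796187, minus strand): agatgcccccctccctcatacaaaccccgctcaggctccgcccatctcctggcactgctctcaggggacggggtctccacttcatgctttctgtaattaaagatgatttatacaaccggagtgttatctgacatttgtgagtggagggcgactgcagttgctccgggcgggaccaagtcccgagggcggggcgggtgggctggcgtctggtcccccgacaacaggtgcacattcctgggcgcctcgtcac
Chrne (chr11:70619195-70619444, minus strand): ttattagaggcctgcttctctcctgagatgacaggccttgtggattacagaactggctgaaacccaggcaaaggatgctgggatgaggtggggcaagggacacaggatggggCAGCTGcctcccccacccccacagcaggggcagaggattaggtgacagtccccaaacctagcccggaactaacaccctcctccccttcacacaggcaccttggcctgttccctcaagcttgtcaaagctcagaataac
The Chrna1 window held 2 matches, starting 92 and 44 bases before the annotated start, and the Chrng window 2, at 155 and 132 bases. The Chrne window held 1, at 138 bases, and the Chrnb1 window 0. Other forms of the E-box were not counted, so 0 does not mean that a window lacks an E-box. Among all 32851 windows of this length in the table, 13.0% held at least 1 match and 1.26% at least 2. A match is a run of letters and not a measured site, and its part in the changes was not tested.

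Of 23 genes on the list for denervation and the neuromuscular junction, 9 had a called difference with quadriceps more positive and 1 with quadriceps more negative, against 7.39% and 4.89% of all genes, and the median difference was 0.49. Runx1, a transcription factor induced by denervation, lay between 5.61 and 5.95 in quadriceps controls (median 5.83) and between 8.49 and 8.87 in quadriceps cKO (median 8.64). In soleus it rose as well, from 6.03 to 6.62 in controls (median 6.47) to 7.31 to 7.86 in cKO (median 7.61). The groups were apart in both muscles, and the rise was 2.88 in quadriceps against 1.22 in soleus (difference 1.66 ± 0.14, adjusted p = 5.21e-08). Ostn, which encodes the secreted muscle peptide osteocrin (musclin), had the largest difference of the quadriceps-only class named here. It lay between 5.93 and 6.52 in quadriceps controls (median 6.16) and between 8.21 and 9.42 in quadriceps cKO (median 8.96), a 6.28-fold rise. Soleus controls read 7.45 to 8.55 (median 8.01) and soleus cKO 6.88 to 7.99 (median 7.48), a change of -0.53 that missed the threshold (adjusted p = 0.0641). Control soleus was above control quadriceps for Ostn, and in cKO mice the order was reversed.

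Of 13 slow fibre genes, 12 were called higher in cKO quadriceps, where most start low (22.3% of all genes). In soleus, where most start high, 4 were called higher and 2 lower (13.2% and 9.94% of all genes). The 4 include Tnnc1 and Tnni1. Of the 13, 11 had a called difference with quadriceps more positive and 0 in the other direction; 6 were quadriceps only, 3 rose in both muscles, 1 was soleus only and 1 opposite. The median change was 1.90 in quadriceps and 0.33 in soleus, and the median difference was 1.54, against 0.00 over all genes. Myh7, the slow myosin heavy chain, lay between 8.98 and 11.12 in quadriceps controls (median 9.33) and between 11.91 and 12.37 in quadriceps cKO (median 12.09). Soleus controls read 12.46 to 12.92 (median 12.51) and soleus cKO 12.91 to 12.99 (median 12.97). Quadriceps controls 1 and 6 held the high values of their group, soleus control 1 the 12.92, and only in soleus did control and cKO touch. The quadriceps rise was 2.33 (5.03-fold) against 0.40 in soleus, a difference of 1.93 ± 0.36 (adjusted p = 0.000769); without quadriceps controls 1 and 6 the difference was 2.55 (adjusted p = 3.16e-12).

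The slow calcium pump Atp2a2, which returns calcium to the sarcoplasmic reticulum in slow and cardiac muscle, behaved alike. It lay between 8.98 and 10.51 in quadriceps controls (median 9.35) and between 11.18 and 11.65 in cKO (median 11.35), with no overlap. Soleus controls read 12.05 to 12.44 (median 12.13) and soleus cKO 12.24 to 12.44 (median 12.30). The slow troponins moved with it: Tnnt1 rose by 1.98 in quadriceps and changed by 0.34 in soleus, Tnnc1 rose by 2.35 and 0.58, and Tnni1 by 2.53 and 0.81. Myl2, a slow and cardiac myosin light chain, rose by 1.90 and changed by 0.33. Its soleus groups were apart (12.18 to 12.57 in controls, 12.58 to 12.69 in cKO), though the soleus change was not called. The brightest probe set of any array read between 13.20 and 13.30, so the slow genes of soleus lay near the top of the range; whether the arrays compress rises there was not tested.

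Regulators of fibre type gave 6 called differences with quadriceps more positive and 1 more negative among 32 genes, against 7.39% and 4.89% of all genes. With the animal as a fixed block, under which 17.9% of all genes were called, the counts were 10 and 1. Esrrg, a nuclear receptor that favours oxidative metabolism, rose by 1.20 in quadriceps and changed by -0.25 in soleus (difference 1.45, adjusted p = 0.00537). Prox1, a homeobox factor of slow fibres, rose by 1.57 and 0.57. Mef2a, a muscle transcription factor, rose by 0.28 in quadriceps and fell by 0.26 in soleus. Mafa, a factor of fast glycolytic fibres, fell by 0.70 in quadriceps and changed by 0.08 in soleus.

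Several genes that fell in quadriceps only were brighter in control quadriceps than in control soleus, and cKO quadriceps reached soleus levels in some of them. Control muscles differed (called, either direction) for 343 of the 411 genes of this kind, against 33.5% of all genes. The quadriceps controls enter both the fall and this gap, so the 2 are linked in advance. Ampd1, the AMP deaminase of fast fibres, lay between 11.42 and 11.72 in quadriceps controls (median 11.54) and between 9.69 and 10.39 in quadriceps cKO (median 10.25). Soleus controls read 10.07 to 10.46 (median 10.18) and soleus cKO 10.08 to 10.25 (median 10.20). Quadriceps fell by 1.39 (2.62-fold) and soleus changed by -0.03, a difference of -1.36 ± 0.13 (adjusted p = 8.68e-08), and the means of the cKO muscles were close (soleus minus quadriceps 0.00, 95% interval -0.19 to 0.19).

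Cyp4f39, a fatty acid hydroxylase of the cytochrome P450 family, lay between 5.68 and 7.16 in quadriceps controls (median 6.62) and between 3.85 and 4.35 in cKO (median 4.10), a 5.48-fold fall. Its soleus levels were low in both genotypes, with medians of 4.26 and 4.01, little above the dim limit (3.51 to 3.72, the level below which a probe set was taken as dim). The soleus groups were nonetheless apart (4.17 to 4.34 in controls, 3.98 to 4.09 in cKO). Smox, spermine oxidase, a gene that supports fibre size, lay between 7.50 and 8.98 in quadriceps controls (median 8.41) and between 6.30 and 7.16 in cKO (median 6.67), with no overlap. Soleus controls read 5.79 to 6.43 (median 5.89) and soleus cKO 5.49 to 5.94 (median 5.75). Mylk2, the skeletal myosin light chain kinase, fell by 1.41 in quadriceps and changed by -0.12 in soleus. Atp1b2, a sodium pump subunit, fell by 0.99 against a change of 0.31, and Neu2, a sialidase, by 1.01 against 0.27. Fgfbp1, which releases fibroblast growth factors, fell by 1.47 against -0.09. All its soleus arrays read 3.55 to 3.79, at about the dim limit, so a soleus response could not be seen well. Quadriceps cKO read 3.61 to 4.28, with quadriceps control 1 (3.81) inside that range, so both changes are fitted values.

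**Figure D2:**
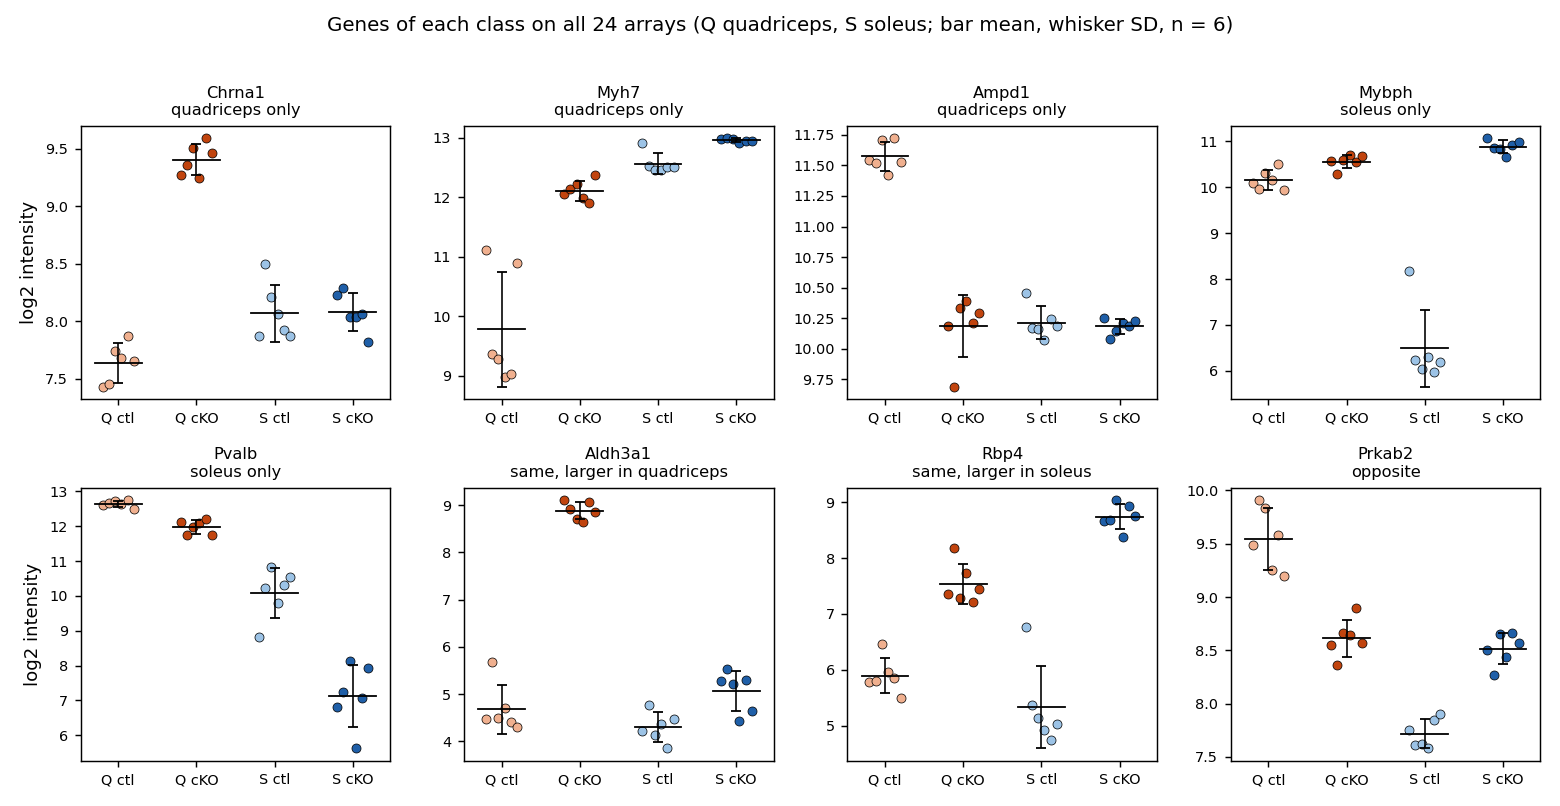
Log2 intensity of 8 genes on all 24 arrays (vertical axes), 1 point per array, with the group mean (bar) and SD (whiskers), n = 6 per group; Q is quadriceps, S soleus and ctl control. Calls were in quadriceps only for Chrna1 and Myh7 (higher) and Ampd1 (lower), and in soleus only for Mybph (higher) and Pvalb (lower). Myh7 soleus medians were nonetheless 12.51 in control and 12.97 in cKO, and the quadriceps groups of Pvalb were apart. Aldh3a1 rises more in quadriceps and Rbp4 more in soleus. Prkab2 falls in quadriceps and rises in soleus until the cKO groups overlap. Soleus control 1, the highest soleus control for Mybph at 8.17, lies away from its group.

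Among 19 interferon-induced genes kept, 15 were called higher in cKO quadriceps and 1 was called lower in cKO soleus, against 22.3% and 9.94% of all genes. Of the 19, 11 had a called difference, all with quadriceps more positive; 10 were quadriceps only and 1 opposite. The median change was 0.49 in quadriceps and -0.07 in soleus, with a median difference of 0.74. Cxcl10, a chemokine that attracts T cells, lay between 3.51 and 4.14 in quadriceps controls (median 3.58), at about the dim limit, and between 4.91 and 6.35 in quadriceps cKO (median 6.27). Soleus controls read 3.66 to 4.0 and soleus cKO 3.67 to 4.36. The quadriceps groups were apart although cKO 6, at 4.91, was far below the other 5, and the soleus groups overlapped. As the quadriceps controls lay near the dim limit, the change of 2.36 and the difference of 2.23 are fitted values. Ifit2 rose by 0.82 and changed by -0.16 in soleus, the guanylate-binding protein gene Gbp3 rose by 0.78 and changed by -0.21, and Psmb8, a subunit of the immunoproteasome, rose by 0.49 and changed by -0.05.

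Markers of blood cells beside these genes differed in part. Ptprc, which marks all leukocytes (CD45), rose by 0.93 in quadriceps and changed by 0.14 in soleus (difference 0.78, adjusted p = 0.00325), and it was the 1 called gene of 9 neutrophil and lymphocyte markers kept; the other 6 of 15 measured were too dim. The summed level of those markers lay between 7.37 and 7.65 in quadriceps controls and 7.51 and 7.96 in quadriceps cKO, and between 7.50 and 7.67 in soleus controls and 7.50 and 7.73 in soleus cKO. Of 22 macrophage markers, 2 had a called difference with quadriceps more positive and 1 more negative, 13.6% against 12.3% of all genes. Their summed level lay between 10.61 and 11.26 in quadriceps controls and 11.51 and 11.83 in quadriceps cKO, and between 10.52 and 10.86 in soleus controls and 10.97 and 11.49 in soleus cKO, so macrophage genes were higher in cKO in both muscles. The part of these cells in the interferon genes was not tested.

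The largest difference among genes called in soleus only was that of Mybph, myosin binding protein H, a thick filament protein of fast fibres. Mybph lay between 5.97 and 8.17 in soleus controls (median 6.22) and between 10.65 and 11.06 in soleus cKO (median 10.88). Quadriceps controls read 9.93 to 10.51 (median 10.13) and quadriceps cKO 10.29 to 10.69 (median 10.57). Soleus control 1 read 8.17, far above the other soleus controls, and all 6 lay below cKO. The soleus rise was 4.40 (21.1-fold) against 0.39 in quadriceps, a difference of -4.0 ± 0.32 (adjusted p = 1.21e-08); without soleus control 1 the difference was -4.34. Control soleus lay 3.67 below control quadriceps, and cKO soleus 0.33 above cKO quadriceps.

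Actc1, cardiac actin, which skeletal muscle expresses during development, rose by 1.60 in soleus and changed by -0.53 in quadriceps, where the adjusted p was 0.0885. Its soleus levels lay between 8.88 and 10.60 in controls (median 9.32) and between 10.58 and 11.58 in cKO (median 11.03), with the highest control, soleus control 1, just inside the cKO range. Gamt, the last enzyme of creatine synthesis, lay between 5.46 and 6.61 in soleus controls (median 5.86) and between 7.38 and 8.10 in soleus cKO (median 7.83). Its quadriceps medians were 7.74 and 7.73, so cKO soleus reached the quadriceps level (cKO soleus minus quadriceps 0.01). Sort1, the sorting receptor sortilin, rose by 1.37 in soleus against a change of 0.10 in quadriceps, Sfrp4, a secreted Wnt inhibitor, by 1.36 against 0.02, and Mettl21c, a methyltransferase of muscle, by 0.89 against -0.43. Tppp3, a tubulin-binding protein, rose by 1.33 against 0.02, and Spa17 by 1.14 against -0.31.

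The fast myosin genes Myh1 and Myh4 fell in cKO soleus and were not called in quadriceps. The fast fibre contractile list of 17 genes held 7 called differences with quadriceps more positive and 3 more negative (7.39% and 4.89% of all genes). The pattern was mixed: 3 members were quadriceps only, 3 soleus only, 1 larger in quadriceps and 3 larger in soleus. Pvalb, parvalbumin, a calcium buffer of the fastest fibres, lay between 8.82 and 10.84 in soleus controls (median 10.26) and between 5.62 and 8.12 in soleus cKO (median 7.15), with no overlap. Quadriceps controls read 12.49 to 12.75 and quadriceps cKO 11.74 to 12.21. The soleus fall of 2.96 (7.77-fold) stood against -0.66 in quadriceps, where the groups were also apart but the adjusted p was 0.0750 (difference 2.30 ± 0.42, adjusted p = 0.000613).

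Myh1, the IIx myosin heavy chain, lay between 10.81 and 12.36 in soleus controls (median 12.06) and between 9.65 and 11.59 in soleus cKO (median 10.11), with overlap. Quadriceps controls read 11.64 to 12.46 and quadriceps cKO 11.96 to 12.32, and the difference was 1.72 ± 0.34 (adjusted p = 0.00151). Myh4, the IIb myosin heavy chain of the fastest fibres, varied widely in soleus, from 7.41 to 11.78 in controls (median 11.03) and from 6.87 to 9.57 in cKO (median 7.26). Quadriceps controls read 12.77 to 12.84 and quadriceps cKO 12.40 to 12.72, apart but with a small change (-0.23, adjusted p = 0.755 in the shared model). The difference of 2.33 ± 0.78 was barely called (adjusted p = 0.0486) and missed the threshold in 25 of 38 other settings, with adjusted p from 0.00511 to 0.0905. Myh2, the IIa heavy chain, rose by 1.01 in quadriceps and changed by -0.01 in soleus.

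Other genes that fell in soleus only included Slc5a3, a myo-inositol carrier. It lay between 6.83 and 8.30 in soleus controls (median 7.53) and between 5.62 and 6.36 in soleus cKO (median 6.08). Its quadriceps change was 0.48, and the difference was 2.06 (adjusted p = 2.45e-05). Mgst1, a glutathione transferase of membranes, fell by 1.21 in soleus against 0.30 in quadriceps, Zdhhc23, a palmitoyltransferase, by 1.25 against 0.34, Dusp18, a phosphatase, by 1.44 against 0.00, and Lrrc52, a potassium channel subunit, by 2.19 against -0.56.

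Of 25 genes of fatty acid uptake and oxidation, 21 were called lower in cKO soleus and 10 in cKO quadriceps, where 2 were called higher. Over all genes 9.94% were called lower in soleus, and in quadriceps 17.7% lower and 22.3% higher. Of the 25, 9 had a called difference and all 9 had the more positive quadriceps change; 7 were soleus only and 2 changed in both muscles with soleus more. The median change was -0.18 in quadriceps and -0.64 in soleus. Lpl, lipoprotein lipase, fell by 0.93 in soleus and changed by 0.11 in quadriceps (difference 1.04, adjusted p = 0.000397). Cd36, the fatty acid receptor, fell by 0.68 against 0.07, Slc27a1, a fatty acid transporter, by 0.89 against -0.18, and Eci1, an enzyme of unsaturated fatty acid oxidation, by 0.87 in soleus and 0.36 in quadriceps. With the arrays centred on their median 5 of the 25 were called, and none in the other direction. Lpl and Cd36 are also rich in fat cells and small vessels. Of 14 adipocyte markers 2 (14.3%) and of 16 endothelial markers 3 (18.8%) had a called difference, all with quadriceps more positive, against 12.3% of all genes in either direction and 7.39% in this one. With the animal as a fixed block, under which 17.9% of all genes were called, the counts were 4 and 9. The summed endothelial level lay between 11.99 and 12.45 in soleus controls and between 11.53 and 11.76 in soleus cKO, without overlap, and between 11.55 and 12.20 in quadriceps controls and 11.44 and 11.87 in quadriceps cKO. The summed adipocyte level lay between 13.45 and 13.67 in soleus controls and 13.58 and 13.83 in soleus cKO. Its range was 12.78 to 13.87 in quadriceps controls and 13.57 to 14.33 in quadriceps cKO. Lpl is itself on the adipocyte list: the 2 called adipocyte markers were Lpl and Dgat2, and the summed adipocyte level includes Lpl. The adipocyte values are therefore not separate from those of Lpl. The part of vessels and fat in these genes was not tested.

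Proteasome subunit genes rose more often in soleus: of 31, 22 were called higher in cKO soleus and 0 lower. In cKO quadriceps 8 were called higher and 2 lower. Over all genes the shares higher and lower were 13.2% and 9.94% in soleus and 22.3% and 17.7% in quadriceps. Of the 31, 14 had a called difference, all with the more negative quadriceps change, and 30 of 31 had a difference below 0. Of the 14, 9 were soleus only, 3 changed more in soleus and 2 were quadriceps only. The changes were small: the median was 0.36 in soleus and 0.09 in quadriceps. Psmd4, a ubiquitin receptor of the regulatory particle, rose by 0.78 in soleus and changed by 0.11 in quadriceps (difference -0.66, adjusted p = 0.00205). Psmd8 rose by 0.62 against 0.10, and the ATPase subunits Psmc5 and Psmc2 by 0.39 against -0.03 and by 0.29 against -0.09. Among 29 genes of the atrophy list, which include ubiquitin ligases and FoxO factors, 3 had a called difference in each direction. Over all genes 7.39% were called with quadriceps more positive and 4.89% more negative. Fbxo30, a ubiquitin ligase of atrophy, rose by 1.11 in quadriceps and changed by 0.16 in soleus, and Sqstm1, the autophagy receptor p62, rose by 0.37 in soleus and changed by -0.17 in quadriceps.

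**Figure D3:**
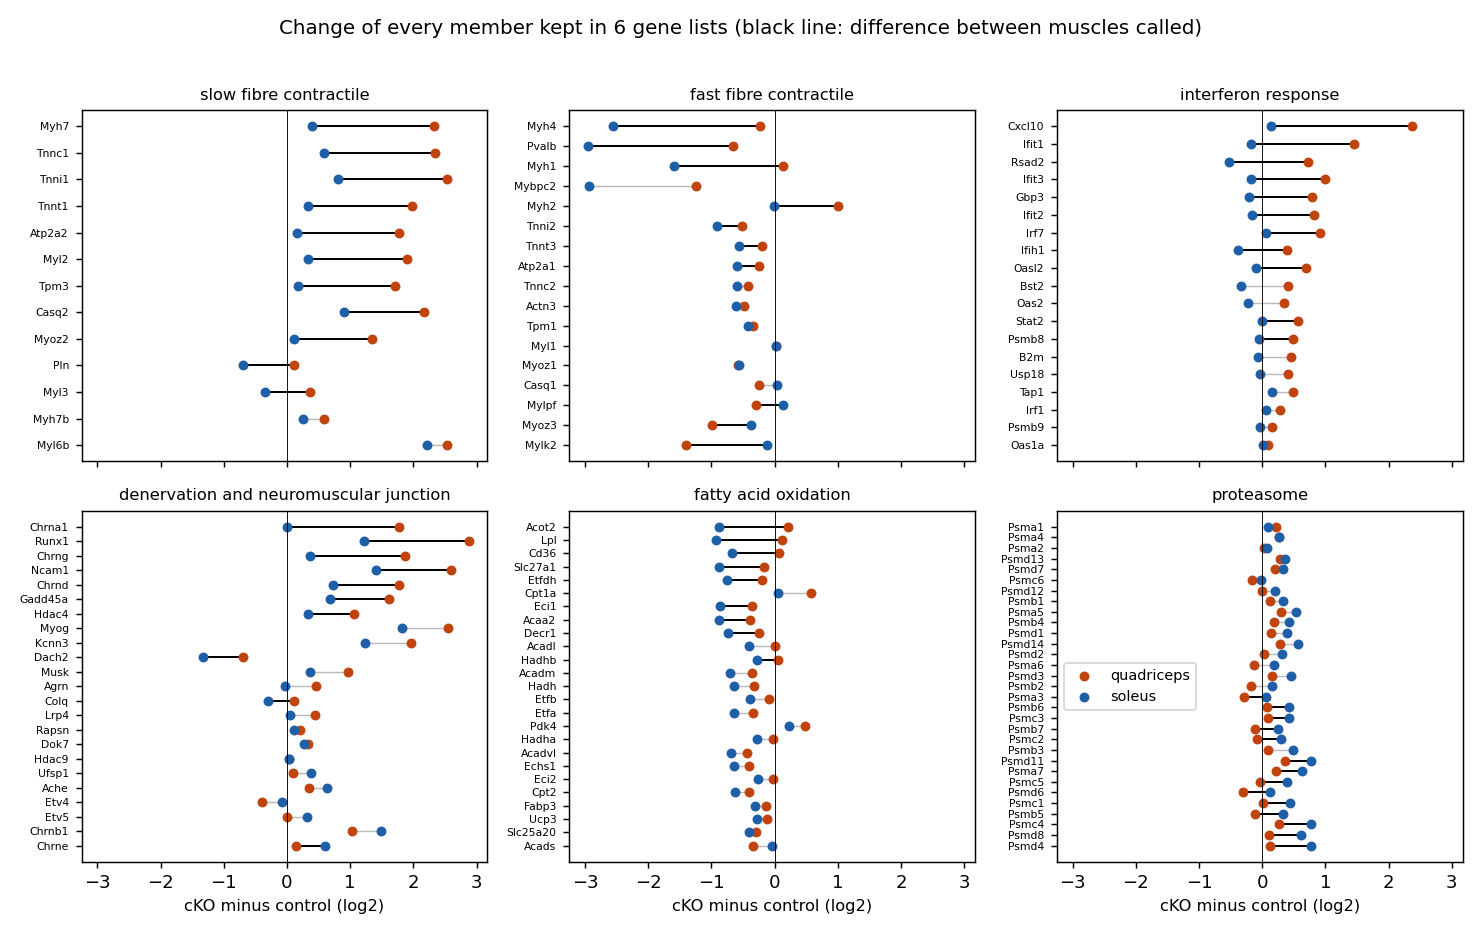
Change in cKO (horizontal axes, log2) of every member kept in 6 gene lists, with quadriceps in red and soleus in blue joined by a line, which is black where the difference between muscles was called. Quadriceps points lie to the right of soleus points for all 13 slow fibre and all 19 interferon genes, and to the left for 30 of 31 proteasome genes.

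The genes that rose in both muscles but more in quadriceps were led by Aldh3a1, an aldehyde dehydrogenase that clears products of lipid peroxidation. Aldh3a1 lay between 4.30 and 5.69 in quadriceps controls (median 4.49) and between 8.65 and 9.11 in quadriceps cKO (median 8.88). Soleus controls read 3.85 to 4.76 (median 4.29) and soleus cKO 4.43 to 5.53 (median 5.24). The quadriceps groups were far apart and the soleus groups overlapped. The rise was 4.20 (18.4-fold) in quadriceps and 0.76 (1.70-fold) in soleus, a difference of 3.44 ± 0.28 (adjusted p = 1.21e-08). Krt18, a keratin of simple epithelia, lay between 4.94 and 5.38 in quadriceps controls and between 7.56 and 8.42 in cKO. Soleus controls read 4.67 to 5.17 and soleus cKO 5.24 to 5.92, and both muscles' groups were apart. Its rise was 7.26-fold in quadriceps and 1.48-fold in soleus. Rrad, a small GTPase that restrains calcium channels, rose by 3.47 and 1.19, and P3h2, a collagen prolyl hydroxylase, by 2.41 and 0.73.

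Developmental isoforms gave a similar order with exceptions. Of 17 genes on the embryonic and neonatal list, 8 had a called difference with quadriceps more positive and 2 more negative (7.39% and 4.89% of all genes). The 2 were Mybph and Actc1, whose rise was in soleus. Myh8, the perinatal myosin heavy chain, rose by 2.81 in quadriceps and 1.14 in soleus, and Myl4, an embryonic light chain, by 1.73 and 0.61. Csrp3, the muscle LIM protein of the Z-disc that responds to stretch, rose by 2.94 and 1.5. It was 1 of 4 genes on the mechanical stress list of 22 with a called and more positive quadriceps change (7.39% of all genes). Fhl1 and Hspb7, on the same list, were quadriceps only (1.09 and 1.30, against 0.38 and 0.18 in soleus). The soleus groups of Fhl1 were nonetheless apart (12.40 to 12.69 in controls, 12.84 to 12.90 in cKO). Xirp2, a Z-disc repair protein named outside the naming rule after its value was seen, was the only called member of that list with the larger change in soleus, 0.87 against 0.53, and it lost the call in 13 of 38 other settings.

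Mstn, myostatin, the secreted brake on muscle growth, led the genes that fell more in quadriceps. It lay between 7.48 and 9.24 in quadriceps controls (median 8.87) and between 5.24 and 7.13 in quadriceps cKO (median 5.92), with no overlap. Soleus controls read 3.31 to 4.76 (median 4.42) and soleus cKO 3.20 to 3.81 (median 3.43). Soleus control 1 was the lowest control, and soleus cKO lay near the dim limit. The soleus fall of 0.85 and the difference between muscles are therefore fitted values. With soleus controls so close to that limit, a soleus fall as large as that of quadriceps could not have been seen. Quadriceps fell by 2.70 (6.49-fold), with a difference of -1.85 ± 0.40 (adjusted p = 0.00291). Slc37a4, the glucose 6-phosphate carrier, fell by 2.08 and 0.51, Chac1, which degrades glutathione, by 2.14 and 0.70, Smyd2, a lysine methyltransferase, by 1.96 and 0.85, Map2k6, an activator of p38 kinases, by 1.68 and 0.48, and Mdga1 by 1.39 and 0.37.

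Other growth signals also differed between the muscles. Of 34 genes on that list, 9 had a called difference with quadriceps more positive and 2 more negative, against 7.39% and 4.89% of all genes. The 2 were Mstn and Gdf11. Gdf11, the close relative of myostatin, moved in soleus: it rose by 1.57 there and changed by 0.42 in quadriceps (difference -1.15, adjusted p = 0.00243). Id1 and Id2, inhibitors of myogenic factors and targets of bone morphogenetic proteins, were higher in cKO quadriceps by 0.60 and 1.33. In soleus Id1 fell by 0.41 and Id2 changed by 0.10. Gdf5, a ligand of that pathway, rose by 0.75 in quadriceps and changed by -0.09 in soleus.

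Rbp4, the retinol carrier, led the genes that rose more in soleus and were above the dim limit in every group. It lay between 4.74 and 6.77 in soleus controls (median 5.09) and between 8.38 and 9.04 in soleus cKO (median 8.72). Quadriceps controls read 5.50 to 6.47 (median 5.83) and quadriceps cKO 7.21 to 8.18 (median 7.40). Both muscles' groups were apart, and soleus control 1 was the high control. The rise was 3.41 (10.7-fold) in soleus and 1.64 (3.11-fold) in quadriceps, a difference of -1.78 ± 0.33 (adjusted p = 0.000769). Klhl40, a kelch protein that stabilises nebulin and is itself a nemaline myopathy gene, lay between 6.97 and 8.06 in soleus controls (median 7.06) and between 8.44 and 8.91 in soleus cKO (median 8.70). Quadriceps controls read 7.53 to 8.19 (median 7.88) and quadriceps cKO 8.10 to 8.46 (median 8.31). It rose by 1.45 in soleus and 0.42 in quadriceps (difference -1.02, adjusted p = 0.00155). Popdc2, a membrane protein of heart and muscle, rose by 1.46 and 0.31, C1qtnf3, a secreted C1q-related protein, by 1.93 and 0.78, and Cd68, a lysosomal protein of macrophages, by 2.10 and 1.15.

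Of the macrophage list, Cd68 was thus higher in soleus while Lgals3, galectin 3, rose more in quadriceps (1.81 against 0.59). Genes that fell more in soleus included Ephx2, soluble epoxide hydrolase. It lay between 7.80 and 8.20 in soleus controls (median 8.11) and between 5.72 and 6.44 in soleus cKO (median 6.06). Quadriceps controls read 7.13 to 7.78 (median 7.61) and quadriceps cKO 6.32 to 7.59 (median 6.82), with overlap. The fall was 2.0 in soleus and 0.70 in quadriceps. Myom2, the M-band protein of fast fibres, fell by 1.55 and 0.49, Grb14, an adaptor that inhibits the insulin receptor, by 1.62 and 0.58, Khdrbs3, an RNA-binding protein, by 1.66 and 0.71, and Wif1, a secreted Wnt inhibitor, by 1.52 and 0.59.

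Opposite changes were called for few genes, but their differences were large: the median size was 0.75, against 0.55 for quadriceps-only and 0.56 for soleus-only genes, and 90 of 117 reached 1.5-fold against 471 of 1107 and 174 of 388. The opposite signs that define the class add to the difference. Of the 117 genes, 11 had groups that did not overlap in either muscle; over all genes tested, 12 (0.0750%) changed so in opposite directions. Prkab2, the beta 2 subunit of AMP-activated protein kinase, the cell's energy sensor, lay between 9.20 and 9.91 in quadriceps controls (median 9.54) and between 8.36 and 8.90 in quadriceps cKO (median 8.60). Soleus controls read 7.58 to 7.90 (median 7.69) and soleus cKO 8.27 to 8.66 (median 8.54). Neither muscle's groups overlapped, and the cKO groups of the 2 muscles covered much the same range. Quadriceps fell by 0.93 and soleus rose by 0.80, a difference of -1.73 ± 0.16 (adjusted p = 5.21e-08).

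Aimp2, a scaffold of the aminoacyl-tRNA synthetase complex, fell in quadriceps from a median of 9.46 (8.89 to 10.02) to 8.25 (7.66 to 8.57) and rose in soleus from 7.29 (7.19 to 7.54) to 7.97 (7.81 to 8.30). Exoc7, a subunit of the exocyst that tethers vesicles, fell in quadriceps from a median of 8.56 (8.03 to 8.71) to 7.25 (7.14 to 7.48) and rose in soleus from 6.94 (6.80 to 7.18) to 7.30 (7.21 to 7.51). Cd24a, a small surface glycoprotein, fell from 10.09 (9.98 to 10.22) to 9.45 (9.11 to 9.76) and rose from 8.54 (8.27 to 8.83) to 9.31 (9.04 to 9.44). In these 3 genes the groups were apart within each muscle. Sh3bgr fell by 0.67 and rose by 0.43, Mical2, an enzyme that oxidises actin, fell by 0.99 and rose by 0.39, and Bhlhe41, a repressor of the circadian clock, fell by 0.56 and rose by 0.82. The soleus groups of Mical2 overlapped (6.73 to 7.46 in controls, 7.28 to 7.70 in cKO). Bhlhe41 overlapped in quadriceps (7.80 to 8.87 and 7.24 to 8.05) and in soleus (6.34 to 7.73 and 7.40 to 8.38). Its class changed in 7 of 38 other settings. Rny1, which gives the small noncoding Y1 RNA, had the largest difference of the class. It fell by 1.55 in quadriceps (2.93-fold) and rose by 1.63 in soleus (3.09-fold), a difference of -3.18 (limma adjusted p = 7.05e-07). Its quadriceps groups overlapped, as quadriceps control 6 read 8.74 and quadriceps cKO 8.22 to 8.81. Its soleus groups were apart (6.45 to 8.21 in controls, 8.60 to 9.16 in cKO).

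The reverse pattern, up in quadriceps and down in soleus, was led by Ctxn3, cortexin 3, with 0.49 and -1.17. Ctxn3 overlapped between quadriceps control (6.74 to 7.95) and cKO (7.46 to 7.85), and its class changed in 15 of 38 other settings while its difference stayed called. Ppfibp2, a liprin that binds at the cell edge, rose in quadriceps from a median of 6.70 (6.43 to 6.82) to 7.50 (7.23 to 7.63) and fell in soleus from 7.61 (7.35 to 7.98) to 7.14 (7.0 to 7.30), with the groups apart in both. Ntm, neurotrimin, a surface protein that guides neurites, rose from 4.74 (4.44 to 4.93) to 5.70 (5.35 to 6.11) and changed in soleus from 5.53 (5.35 to 5.77) to 5.23 (5.06 to 5.37), a called fall of 0.34 with touching groups. Egln3, a prolyl hydroxylase that senses oxygen, rose by 0.85 and fell by 0.52. Fat3, a giant cadherin, rose by 0.90 and fell by 0.34, Ifi203, an interferon-induced DNA-binding protein, rose by 0.88 and fell by 0.39, Tmem47 rose by 0.66 and fell by 0.74, and Tmem150c rose by 0.38 and fell by 1.07.

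**Figure D4:**
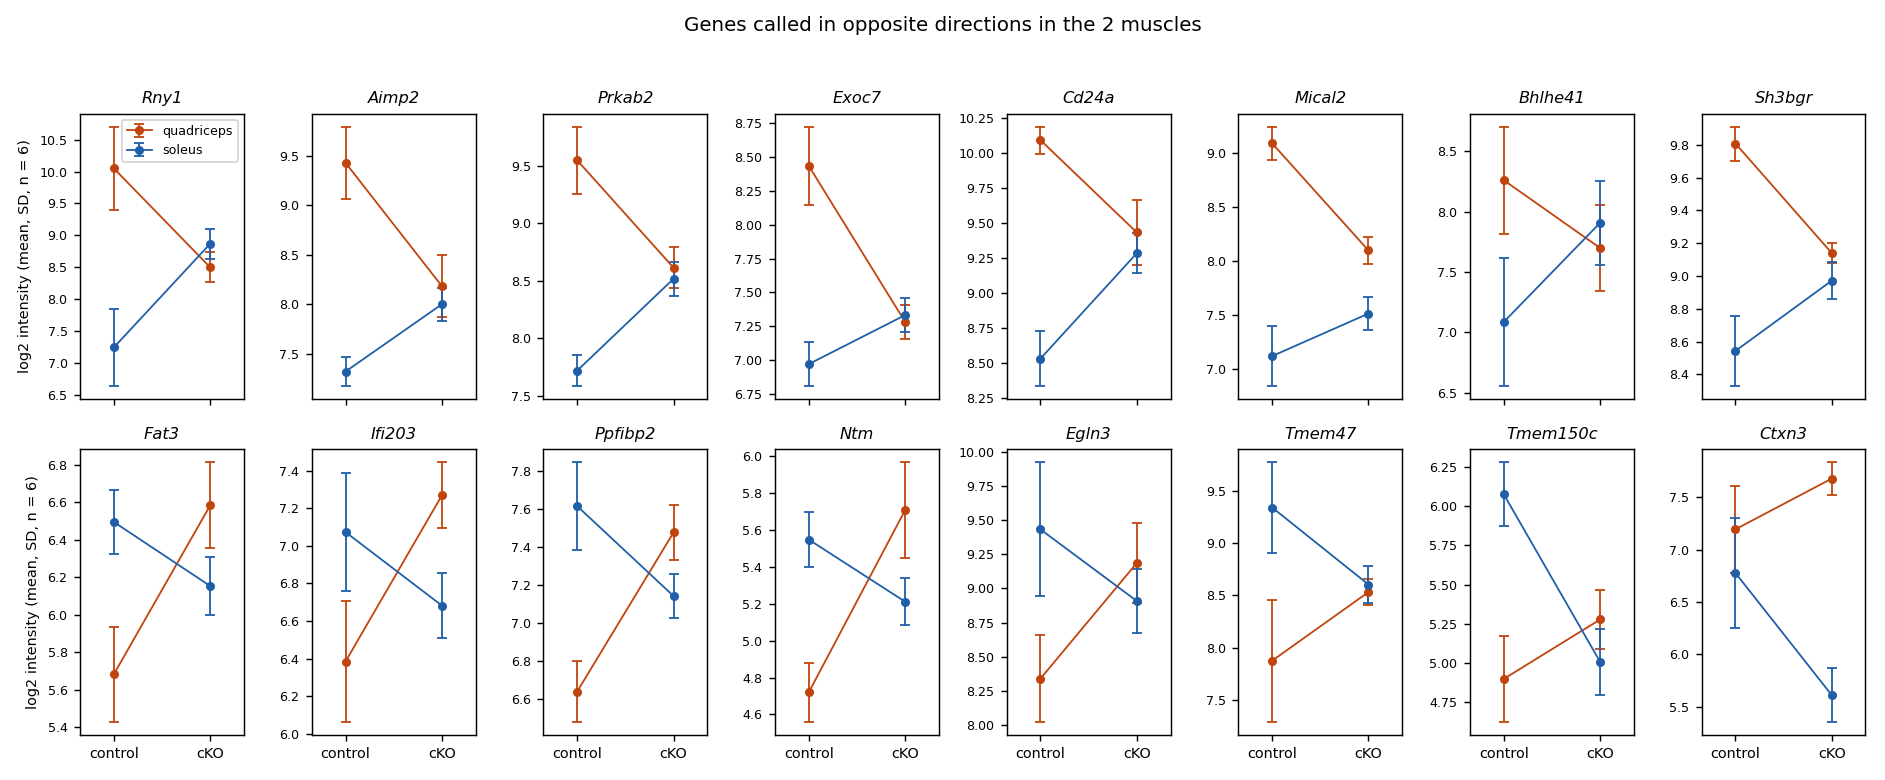
Group means with SD (n = 6 arrays) of 16 genes called in opposite directions, those with the largest differences each way under the naming rule, as log2 intensity (vertical axes) in control and cKO (horizontal axis) for quadriceps (red) and soleus (blue). The upper row falls in quadriceps and rises in soleus, the lower row does the reverse, and for Prkab2 the muscles lie 1.83 apart in controls and 0.10 apart in cKO.

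The same contrast can be read as a gap between muscles that differs by genotype. It uses the same 4 groups, so this is a restatement with no test of its own. Among the 1966 called genes the gap between soleus and quadriceps was smaller in cKO than in control mice for 1270. For 986 the control muscles differed (called) and the cKO muscles did not, for 546 the reverse held, for 205 both gaps were called with the same sign, for 144 the sign was turned and for 85 neither was called. Among the 14033 genes with no called difference the gap was smaller in cKO for 6931. For 2217 of the 14033 the control muscles alone differed (called), and for 1909 the cKO muscles alone did. Among the 117 opposite genes the gap was smaller in cKO for 90. For Mybph it went from -3.67 to 0.33 (soleus minus quadriceps), for Rny1 from -2.81 to 0.37, for Gamt from -1.73 to 0.01, for Exoc7 from -1.46 to 0.05 and for Myh7 from 2.78 to 0.85. It widened for others: from -0.38 to -3.82 for Aldh3a1, from -0.12 to -2.41 for Krt18 and from -2.55 to -4.85 for Pvalb. For Ostn the sign turned, from 1.83 to -1.35.

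Calcium handling genes split by direction. Of 29, 10 had a called and more negative quadriceps change and 7 a more positive 1, against 4.89% and 7.39% of all genes. Jph2, which holds the triad membranes together, fell by 1.13 in quadriceps and changed by -0.04 in soleus (difference -1.09, adjusted p = 3.48e-05), and the calcium-dependent kinases Camk2g and Camk2a fell by 0.83 and 1.03 against changes of 0.01 and -0.24. The genes with more positive change included the slow pump Atp2a2. Of 36 thin filament and Z-disc genes, 9 had a called and more negative quadriceps change and 2 a more positive 1, against the same shares. Pdlim7, a Z-disc adaptor, fell by 0.99 in quadriceps and changed by 0.05 in soleus, Pdlim3 rose by 0.92 in soleus and changed by 0.09 in quadriceps, and Lmod2, a leiomodin that lengthens thin filaments, rose by 1.14 in quadriceps and changed by 0.24 in soleus.

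The remaining lists are read against 12.3% called over all genes. Of 76 oxidative phosphorylation genes 9 were called (11.8%) and of 28 glycolysis and glycogen genes 6 (21.4%), among them Gbe1, the glycogen branching enzyme, which fell by 0.45 in soleus and changed by 0.27 in quadriceps. Of 38 matrix genes 4 were called (10.5%), all with quadriceps more positive; Thbs1, thrombospondin 1, rose by 1.49 in quadriceps and changed by 0.20 in soleus, and Eln, elastin, rose by 0.90 and changed by 0.18. Of 27 genes of the sarcolemma and dystrophin complex 1 was called, Utrn, utrophin, which rose by 1.19 in quadriceps and changed by 0.32 in soleus. The soleus groups of Utrn were apart (7.89 to 8.28 in controls, 8.29 to 8.43 in cKO), though the soleus change was not called. Of 20 citric acid cycle genes 1 was called, Idh2, with 0.52 and -0.27. Of 18 endoplasmic reticulum chaperones 0 were called by limma (4 at an unadjusted p under 0.05), 1 of 34 cytosolic ribosome genes was, 1 of 24 cell cycle genes and 1 of 26 immediate early genes. The share called was 15.8% of 19 cytosolic heat shock genes, 13.6% of 22 integrated stress response genes, 12.5% of 16 p53 targets and 11.8% of 17 circadian clock genes. With the animal as a fixed block 17.9% of all genes were called. The counts that then moved by more than 1.5 times included 6 of the chaperones, 10 of the matrix genes and 3 of the citric acid cycle genes. Others were 2 of the sarcolemma genes, 10 of the glycolysis genes, 2 of the cell cycle genes and 8 of the immediate early genes. So did heat shock (3 with quadriceps more positive and 3 more negative), p53 targets (3 and 2) and clock genes (2 and 6).

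For markers of cells other than fibres the called differences were 4 of 12 for pericyte and smooth muscle (33.3%), 2 of 12 for tendon (16.7%), 2 of 15 for satellite cells (13.3%), 1 of 13 for fibro-adipogenic progenitors (7.69%), 0 of 8 for Schwann cell and nerve (1 at an unadjusted p under 0.05 by limma) and 0 of 2 for red blood cells (0 at an unadjusted p under 0.05). All of the called ones had the more positive quadriceps change, against 12.3% of all genes called and 7.39% in this direction. With the animal as a fixed block (17.9% of all genes called) the counts were 6 for pericyte and smooth muscle, 6 for tendon, 4 for satellite cells and 1 for Schwann cell and nerve, all in this direction, and for fibro-adipogenic progenitors 2 in this direction and 1 in the other. Chad, chondroadherin, and Mkx, mohawk, of the tendon list, fell by 0.82 and 0.67 in soleus and changed by 0.23 and -0.09 in quadriceps; Myh11, smooth muscle myosin, fell by 0.66 in soleus against 0.11. The summed tendon level lay between 12.22 and 12.71 in soleus controls and 12.35 and 12.74 in soleus cKO, and between 11.53 and 12.42 in quadriceps controls and 12.40 and 12.58 in quadriceps cKO. How far such cells contribute to the genes above was not tested.

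**Figure D5:**
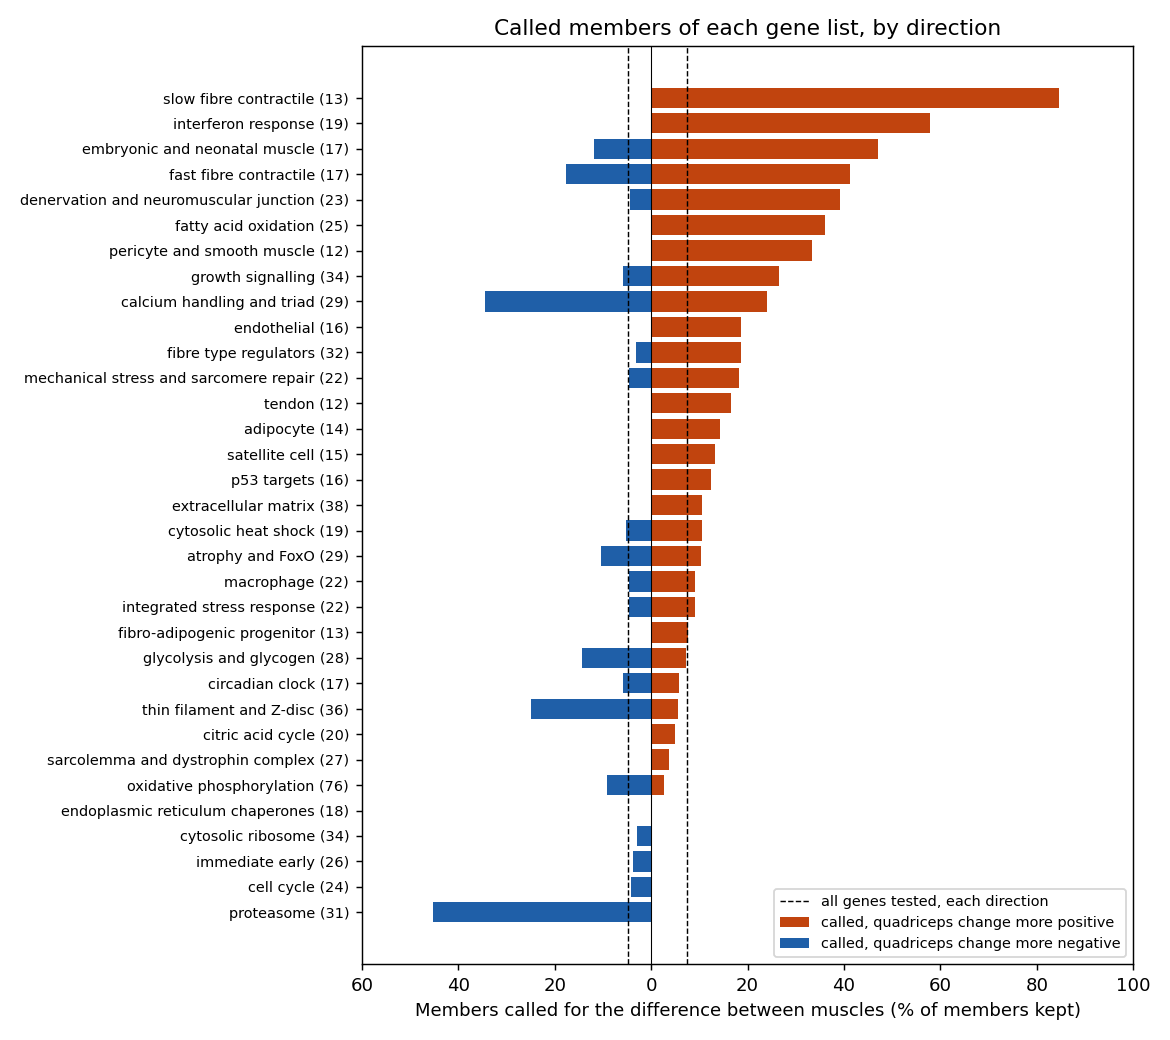
Share of the members kept (number in brackets) of 33 gene lists that were called for the difference between muscles, with the quadriceps change more positive to the right and more negative to the left, in percent. Dashed lines mark the same shares over all 15999 genes, 7.39% and 4.89%; the slow fibre list reaches 84.6% to the right and the proteasome list 45.2% to the left.

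Called genes that were dim on every array of a group have only bounds. Epgn, epigen, a ligand of the epidermal growth factor receptor, was dim in all soleus controls and at least 8.75-fold higher in soleus cKO, against a fitted change of 1.62 in quadriceps. Muc15, a membrane mucin, was dim in both control groups, at least 2.84-fold higher in quadriceps cKO and at least 6.82-fold higher in soleus cKO. Odf3l2 was dim in both cKO groups and at least 3.48-fold lower in quadriceps cKO. These bounds set the brighter group's mean against the dim limit of the arrays or the gene's own value, whichever was higher.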

How the data were processed

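Per the submitters' processing notes the arrays were processed with Affymetrix Expression Console and RMA, with mm10 as genome build; no version is given in the sources here. The intensity values that the authors deposited are linear, 1 per probe set (35557) and array, and were turned to log2. Probe sets with 1 gene symbol (21789) were used, the brightest for genes with several. A gene was kept if above the array's 30th percentile (the dim limit, 3.51 to 3.72) on at least 6 arrays. A limma 3.58.1 model of 4 group means (R 4.3.3, eBayes, 20 residual degrees of freedom) gave all contrasts, two-sided, adjusted by Benjamini-Hochberg over 15999 genes and called under 0.05. The count of genes, classes and intervals follow from it. The model was tested on simulated data with independent arrays and 1 spread per gene. That test does not cover pairing by animal or unequal spread between groups.

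The comparison, the gene lists and the naming rule were chosen with earlier results of these data known. Named genes are the largest called differences of each class (8 or 6 each way, without predicted names and without the prefixes of microRNAs, small nucleolar, small nuclear and 5S RNAs, which leaves Rny1 in) and up to 4 members per list with the smallest p; Xirp2, Chrnb1 and Chrne fall outside it. The fibro-adipogenic list holds Tcf4 in place of Tcf7l2, by mistake.

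The labels number the samples 1 to 6 in each group. For each number and genotype, the deviations of both muscles from their group means gave r of 0.16 to 0.31 (control) and 0.22 to 0.45 (cKO), all 12 pairs best with their own number, so they were taken as 1 animal in blocked alternatives, although the labels give cKO 4 different ages in the 2 muscles. Other alternatives changed scaling, the dim filter, probe sets, weights and the arrays included.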

Additional observations from a re-analysis of the deposited data

Results flagged for a closer look

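Among 32 genes followed array by array, 12 of 128 groups (9.38%) held an array whose gap to the nearest other array was above Dixon's 95% critical value for 6 arrays; chance gives about 5%. Soleus control 1 was that array 8 times. It read 12.92 for Myh7, 12.44 for Atp2a2, 8.17 for Mybph, 10.60 for Actc1, 6.77 for Rbp4 and 8.06 for Klhl40, in each case the high value of its group. It read 10.81 for Myh1 and 3.31 for Mstn, the low values. All 8 lay on the side of soleus cKO. The other 4 were on different arrays: quadriceps cKO 6 was low for Cxcl10 (4.91), quadriceps cKO 2 low for Ampd1 (9.69), soleus cKO 6 high for Myh4 (9.57) and quadriceps control 2 high for Aldh3a1 (5.69).

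The effect of the knockout differed between the muscles by the test of the difference itself for 1107 genes called in quadriceps only, 388 in soleus only, 218 that changed the same way and more in quadriceps, 61 that changed the same way and more in soleus and 117 with opposite directions.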

How the results depend on the processing

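Of 126 called genes named and refitted here, none reversed its difference in any of 38 alternatives, and 123 kept the call throughout; Myh4, Chrne and Xirp2 did not. The class changed in at least 1 alternative for 47 of the 126. The total was higher in 14 alternatives and lower in 24, and of 24 single arrays left out 20 lowered it. Leaving out 1 array at a time gave 1576 to 2856 genes in all, 957 to 1792 with the more positive and 619 to 1064 with the more negative quadriceps change, 869 to 1660 quadriceps only, 281 to 636 soleus only, 178 to 271 larger in quadriceps, 44 to 131 larger in soleus and 81 to 197 opposite. The highest counts came without quadriceps control 6 (opposite 191) or soleus control 1. Without control 1 of both muscles, chosen after seeing the data, soleus only was 596, larger in soleus 116 and opposite 186. Without quadriceps controls 1 and 6, also chosen so, the total was 3038, with 1878 more positive, 1757 quadriceps only, 333 larger in quadriceps and 211 opposite. Array weights gave 3570 genes, 2025 more positive and 1545 more negative, in classes of 1702, 914, 363, 136 and 326. With an animal block the pairing gave 1797 more positive and 99 larger in soleus (fixed), or 2952 in all, 1182 more negative and 96 larger in soleus (random), and 92 larger in soleus without cKO 4. Median centring left 771 more positive. At 1.5-fold or more, chosen after seeing the data, 914 remained, 611 and 303 by direction, with 471 quadriceps only, 174 soleus only, 134 larger in quadriceps and 29 larger in soleus. The causes were not tested. Signal near the dim limit limits what the arrays show of low genes such as Mstn and Cxcl10.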
